A study of Mus musculus with 3 samples.

Results

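The genes described are 7 members of the interleukin-1 (IL-1) family of cytokines and receptors: the receptor genes Il1r1, Il1rl2, Il1rap and Il1r2 and the ligand genes Il1b, Il1rn and Il18, out of 22548 genes counted. They were chosen with their values in these same cells known, so their levels and ratios below are a description and carry no test. They were read in dendritic cells sorted on day 5 from the lymph nodes that drain the ear, after MC903, an inflammatory vitamin D analogue, had been given on days 0, 2 and 4. Every mouse carried SiglechiCre Tg/0, ROSA26 LoxP-STOP-LoxP-RFP and Tnfsf4 KI/+, so that all populations share 1 treatment and 1 genotype, and no untreated or reporter-free cells are among them. RFP stays on in cells in which the Siglech-driven Cre has acted, at any time in their past, and BFP is taken here as the reporter of Tnfsf4, the gene of a T cell costimulatory ligand, from its knock-in allele, although the labels list the reporter and the allele without joining them. The gate kept B220-, MHCII-high, CD11c-low to intermediate, XCR1- and CD326- cells, meant to leave out B cells, type 1 conventional dendritic cells and Langerhans cells. The 4 sorted populations are called double-positive (BFP+RFP+), RFP-only (BFP-RFP+), BFP-only (BFP+RFP-) and double-negative (BFP-RFP-) below, and the number of mice pooled is not given in the sources used here.

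In this family, IL-1 beta and IL-1 alpha bind the receptor IL-1R1, which then recruits the accessory chain encoded by Il1rap and signals through MyD88 and the IRAK kinases to NF-kappaB. Il1rl2 encodes the receptor of the IL-36 cytokines, which uses the same accessory chain. Il1r2 encodes a decoy receptor that binds IL-1 without signalling, and Il1rn encodes the receptor antagonist, so both restrain IL-1. Il18 encodes a cytokine with its own receptor. IL-1 beta and IL-18 are made as precursors that caspase-1 cuts in the inflammasome, so mRNA counts do not show how much active cytokine was released. In skin, keratinocytes and myeloid cells are known sources of these cytokines, and dendritic cells are among the cells that respond to them.

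Each population was labelled with its own hashtag antibody before pooling, and every cell was stained with antibodies against CD11b, CD8a, CD172a and CD301b whose oligonucleotide tags were counted. The oligonucleotides below are shown because they decide to which population, and to which tag level, a cell belongs.
Hashtag 1 (BFP+RFP+): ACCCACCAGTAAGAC
Hashtag 2 (BFP-RFP+): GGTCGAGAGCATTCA
Hashtag 3 (BFP+RFP-): CTTGCCGCATGTCAT
Hashtag 4 (BFP-RFP-): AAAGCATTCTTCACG
CD11b tag: TGAAGGCTCATTTGT
CD8a tag: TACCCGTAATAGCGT
CD172a tag: GATTCCCTTGTAGCA
CD301b tag: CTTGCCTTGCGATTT
The tags come from 3 TotalSeq reagent series, per the labels, and were compared between cells only within a tag.

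The genes Il1r2, Il1r1 and Il1rl2 are direct neighbours on chromosome 1, followed by Il1rl1, Il18r1 and Il18rap, in the RefSeq annotation of GRCm38.p6. The 250 bases before the start sites of Il1r1 and Il1rl2, whose mRNA had the same order over the populations' RFP states, and of Il1b, which ran the other way between the BFP states, are printed from RefSeq (GRCm38.p6). Capitals mark the matches to any of 5 motifs that were searched on both strands.
Il1r1, first start, chr1:40224830-40225079 (+ strand): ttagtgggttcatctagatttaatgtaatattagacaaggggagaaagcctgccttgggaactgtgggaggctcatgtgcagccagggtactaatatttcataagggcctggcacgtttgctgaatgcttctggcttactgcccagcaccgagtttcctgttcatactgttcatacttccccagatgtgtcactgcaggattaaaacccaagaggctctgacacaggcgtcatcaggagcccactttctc
Il1r1, second start, chr1:40266336-40266585 (+ strand): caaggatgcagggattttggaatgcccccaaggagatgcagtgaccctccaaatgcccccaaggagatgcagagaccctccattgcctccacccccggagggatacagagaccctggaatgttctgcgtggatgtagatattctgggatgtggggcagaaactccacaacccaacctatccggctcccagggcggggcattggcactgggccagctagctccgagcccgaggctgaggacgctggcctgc
Il1rl2, chr1:40324339-40324588 (+ strand): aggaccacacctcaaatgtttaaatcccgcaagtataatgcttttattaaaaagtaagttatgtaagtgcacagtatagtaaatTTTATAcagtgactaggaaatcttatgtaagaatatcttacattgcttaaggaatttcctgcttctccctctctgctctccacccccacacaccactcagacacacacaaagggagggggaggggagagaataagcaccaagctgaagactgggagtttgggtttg
Il1b, chr2:129371140-129371389 (- strand): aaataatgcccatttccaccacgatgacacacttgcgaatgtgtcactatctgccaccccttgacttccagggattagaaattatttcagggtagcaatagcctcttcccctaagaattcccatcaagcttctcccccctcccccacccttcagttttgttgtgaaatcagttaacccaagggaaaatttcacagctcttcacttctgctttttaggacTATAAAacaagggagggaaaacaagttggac
The kappaB motif was found in 17.6% of all 32851 promoter windows of this length. The AP-1 motif TGANTCA was found in 6.75% of these windows, and GAGGAAG, of the factor PU.1, in 10.6%. The STAT5 motif TTCNNNGAA was in 7.02% of them, and the TATA box letters TATAAA were in 12.4%. The capitals in the Il1rl2 and Il1b windows are a TATA match each, on the reverse and on the forward strand, and neither Il1r1 window holds any of the 5. A match here is a stretch of letters and not a measured site.

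After requiring 80% of a cell's hashtag UMIs on 1 hashtag, 1000 mRNA UMIs and at most 10% mitochondrial UMIs, 5023 of 6079 barcodes were kept: 842 double-positive, 982 RFP-only, 2185 BFP-only and 1014 double-negative cells, with 14140272, 15746616, 35590897 and 14877282 mRNA UMIs (unique molecular identifiers, 1 per captured molecule). Median depth was 13884 to 15182 UMIs per cell, and no barcode occurred more than once. Ccr7 and Fscn1, which mark migratory dendritic cells, had a UMI in 96.2% and 93.8% of cells. Xcr1 and Cd207, of the cells gated out, had one in 0.219% and 0.0995%. Other genes listed for type 1 dendritic cells were found more often, with Ppt1 in 22.7%, Naaa in 12.8%, Wdfy4 in 12.0% and Cadm1 in 8.48% of cells. Of the Langerhans cell list Epcam was found in 2.45%, and the remaining genes of both lists in at most 1.83%. Clustering without the IL-1 family genes, Tnfsf4 and the reporters gave 10 clusters, of which clusters 1 to 6 (4546 cells, 90.5%) showed 10 or 11 of 11 migratory dendritic cell markers and no other type. Cluster 7 was T or NK cell-like, cluster 8 macrophage- or monocyte-like (128 cells, 12 of 14 markers raised, together with 7 of 10 cDC2 markers), cluster 9 B cell-like, and cluster 10 (40 cells, 28 of them RFP-only, median depth 3123 UMIs) was given no name, with 6 of the 14 macrophage and monocyte markers raised and Lyz1, Ccl12 and Prg3 as leading genes. Cluster 8 also showed 9 of 11 migratory dendritic cell markers, with Ccr7 in 68.0% and Fscn1 in 65.6% of its cells. It was thus set apart by its other markers and not by a lack of these. Tnfsf4 mRNA in clusters 1 to 6 stood at 317, 57.4, 105 and 19.3 UMIs per 1000000 in double-positive, RFP-only, BFP-only and double-negative cells. Because 1 pool went through 1 capture, each population is a single sample, and no test between populations was made. Every interval below is a 95% interval for counting error that says nothing of the spread between mice or sorts. The intervals of levels and ratios also take UMIs as independent, and are too narrow where a few cells hold many of them. In these summed counts, fewer cells that express a gene and less mRNA per cell cannot be told apart unless the share of cells is given.

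Il1r1, the receptor through which IL-1 signals, had 30.8 CPM (UMIs per 1000000 mRNA UMIs; 27.9 to 33.8) in double-positive cells, 14.8 in RFP-only cells, 10.6 in BFP-only cells and 4.64 (3.61 to 5.87) in double-negative cells. None of these 4 intervals for counting error touches another, although 5 cells held 19.3% of the Il1r1 UMIs in RFP-only cells and 43.5% in double-negative cells. Clusters 1 to 6 held 78.1% of these UMIs in RFP-only cells and 56.5% in double-negative cells. In clusters 1 to 6 alone the levels were 31.6, 13.2, 10.5 and 2.91 CPM in double-positive, RFP-only, BFP-only and double-negative cells. Il1r1 was higher in RFP+ than in RFP- cells with a log2 ratio of 1.54 (1.34 to 1.74) among BFP+ cells and of 1.67 (1.28 to 2.08) among BFP- cells. It was also higher in BFP+ than in BFP- cells, with 1.05 (0.82 to 1.29) among RFP+ cells and 1.18 (0.81 to 1.58) among RFP- cells. The gene was therefore above log2 0.5 in all 4 comparisons, the only member of which this is true. The share of all genes for which this holds was not counted. Every cell was thinned to 5000 mRNA UMIs, which left out 377 shallower cells. An Il1r1 UMI was then found in 9.41% of double-positive, 4.89% of RFP-only, 3.0% of BFP-only and 1.29% of double-negative cells. The order was the same, but the intervals of RFP-only (3.57% to 6.51%) and BFP-only cells (2.30% to 3.84%) overlap. At full depth the shares were 21.3%, 10.9%, 7.78% and 3.06%. The B cell-like cluster, shown as a background, had 0 of 45 such cells after thinning (up to 7.87%, which the share in double-positive cells alone exceeds), at a median depth of 5021 UMIs before thinning.

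Il1rl2, the IL-36 receptor, had 26.4 CPM in double-positive cells, 17.1 in RFP-only cells, 7.17 in BFP-only cells and 5.92 in double-negative cells. Its difference lay between the RFP states, at log2 1.88 (1.65 to 2.12) among BFP+ cells and 1.53 (1.18 to 1.90) among BFP- cells, and it followed BFP less, by 0.62 (0.39 to 0.85) within RFP+ and 0.27 (-0.08 to 0.64) within RFP-. In RFP-only cells 1 cell held 48 of the 270 Il1rl2 UMIs and the 5 richest cells held 40% of them. Without the 5 richest cells of each population, a setting chosen after seeing the data, the BFP ratios were 1.09 within RFP+ and 0.72 within RFP-. The thinned shares of cells were 6.62%, 3.11%, 1.97% and 1.94% in double-positive, RFP-only, BFP-only and double-negative cells, against 2.22% (1 of 45 cells, 0.0562% to 11.8%) in the B cell-like cluster. This background interval holds the shares of all 4 populations, and with 45 cells it is too wide to place such low shares above it. At full depth the B cell-like cluster had 4.30 CPM of Il1rl2 (0.887 to 12.6). The intervals of double-positive (23.8 to 29.2) and RFP-only cells (15.2 to 19.3) lie above that one, and those of the other populations lie inside it.

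Il1rap, the accessory chain that both receptors need, stood low and level in the 4 populations, at 4.03 CPM (3.05 to 5.22) in double-positive cells, 5.65 in RFP-only cells, 5.45 in BFP-only cells and 5.85 (4.68 to 7.21) in double-negative cells. Its 4 ratios lay between -0.48 and -0.05, all inside log2 0.5, and the thinned share of cells was 1.91% to 2.46%. These shares lie within the interval of the B cell-like cluster (1 of 45 cells, 0.0562% to 11.8%), so the depth does not tell its expression in these cells from background. Il1rap thus did not have the order of Il1r1 and Il1rl2 in these counts.

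Il1r2, the decoy receptor, had 31.5 CPM in double-positive cells, 30.04 in RFP-only cells, 16.7 in BFP-only cells and 25.4 in double-negative cells. The B cell-like cluster had 17.2 CPM of Il1r2 (8.89 to 30.1), an interval that overlaps that of each population. The counts therefore do not place the Il1r2 level of any population above this background. In the same order of populations, the 5 richest cells held 28.9%, 28.8%, 22.1% and 36.0% of the Il1r2 UMIs. Il1r2 was higher in RFP+ cells within BFP+, by log2 0.92 (0.74 to 1.10), and by 0.24 (0.04 to 0.44) within BFP-. Between BFP states it stood at 0.07 (-0.12 to 0.26) within RFP+ and at -0.61 (-0.80 to -0.42) within RFP-. These last values rest on cells outside the dendritic cell clusters: 42.1% of the Il1r2 UMIs of double-negative cells came from clusters 1 to 6, against 75.8% in BFP-only cells. In clusters 1 to 6 alone the level was 27.1 CPM in double-positive cells, 19.0 in RFP-only cells, 13.7 in BFP-only cells and 11.9 in double-negative cells, which is the order of Il1r1, and the ratio between BFP states within RFP- was 0.20 (-0.06 to 0.47). The neutrophil marker list, a further possible source of Il1r2, Il1b and Il1rn, summed to 1.13, 2.29, 0.87 and 2.89 CPM in double-positive, RFP-only, BFP-only and double-negative cells over 9 genes, with Retnlg and Camp at 0.

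Il1b, the member with the most UMIs (12385), had 78.0 CPM in double-positive cells, 182.5 in RFP-only cells, 138.7 in BFP-only cells and 233.4 in double-negative cells. It was lower in BFP+ cells, by log2 -1.23 (-1.33 to -1.13) within RFP+ and -0.75 (-0.81 to -0.69) within RFP-. It was also lower in RFP+ cells within BFP+, at -0.83 (-0.93 to -0.74), and by less within BFP-, at -0.35 (-0.43 to -0.28). The double-positive cells thus had the highest Il1r1 and the lowest Il1b, and the double-negative cells the reverse. The thinned shares of cells with an Il1b UMI were 11.3%, 19.6%, 16.5% and 22.6% in double-positive, RFP-only, BFP-only and double-negative cells, against 11.1% (5 of 45 cells, 3.71% to 24.1%) in the B cell-like cluster. That interval, from 45 cells, holds the shares of all 4 populations. At full depth the B cell-like cluster had 30.1 CPM of Il1b (18.6 to 46.0), below the level of each population. An Il1b-positive cell held 7.30, 10.5, 9.26 and 11.2 UMIs on average at full depth in the same populations, and up to 159 in a cell. The 5 richest cells held 35.2% of the Il1b UMIs in double-positive cells, 18.6% in RFP-only cells, 9.58% in BFP-only cells and 15.7% in double-negative cells.

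Pooled over clusters 1 to 6, Il1b was also lowest in double-positive cells. It had 52.6 CPM in double-positive cells, 159.0 in RFP-only cells, 133.8 in BFP-only cells and 152.6 in double-negative cells. By cluster, the ratio of double-positive over BFP-only cells was -0.42, -0.64 and -1.50 in clusters 1, 2 and 3. It was 0.62 (-0.54 to 1.56) in cluster 4 and 0.57 (0.23 to 0.88) in cluster 6. Over RFP-only cells it was -1.23, -1.98, -2.23, -0.65 (-1.87 to 0.44) and -0.46 in clusters 1, 2, 3, 4 and 6. Cluster 5 made up 1.66% of double-positive and 17.0% of BFP-only cells. Over clusters 1 to 6 together the ratio between BFP states was -1.59 (-1.72 to -1.47) within RFP+ and -0.19 (-0.27 to -0.11) within RFP-. The second value mixes clusters that ran in opposite directions: within RFP-, Il1b was lower in BFP+ cells in cluster 1 (-1.29), cluster 2 (-1.27), cluster 3 (-1.19), cluster 4 (-1.54) and cluster 6 (-0.53), and higher in cluster 5 (1.38), from which 2625 UMIs of BFP-only cells and 352 of double-negative cells came. The ratio between RFP states within BFP- was 0.06 (-0.03 to 0.15) in clusters 1 to 6. The high level of the double-negative cells over all kept cells came with 41 macrophage- or monocyte-like cells, which held 1339 of their Il1b UMIs. The macrophage and monocyte marker list summed to 268, 674, 185 and 692 CPM in double-positive, RFP-only, BFP-only and double-negative cells over all kept cells, with none of its 14 genes at 0. Its part in the remaining differences was not tested.

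Il1rn, the receptor antagonist, was a low gene, at 5.87 CPM (4.67 to 7.28) in double-positive cells, 8.51 in RFP-only cells, 9.47 in BFP-only cells and 9.41 in double-negative cells. It was lower in double-positive cells than in both neighbours, by log2 -0.68 (-1.05 to -0.34) against BFP-only cells and -0.53 (-0.95 to -0.13) against RFP-only cells, and the other comparisons lay at -0.14 and 0.01. In clusters 1 to 6 alone the ratio against RFP-only cells was -0.22 (-0.72 to 0.28), no longer past log2 0.5, and that of BFP-only over double-negative cells was 0.63 (0.28 to 1.01), so that the lower level in double-positive than in BFP-only cells (-0.92) was the one that stayed past it. Thinned shares of 2.37% to 3.15% lie within the background interval of the B cell-like cluster, and the ratio within BFP+ turned to 0.84, and that within RFP+ to 0.88, when each population was given the same mix of clusters. Cluster 5, which held 38.8% of all Il1rn UMIs, had only 14 double-positive cells, so these values rest on few cells.

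Il18 had 15.2 CPM in double-positive cells, 33.0 in RFP-only cells, 22.9 in BFP-only cells and 37.1 in double-negative cells, the same order as Il1b. It was lower in BFP+ cells by log2 -1.11 (-1.35 to -0.88) within RFP+ and -0.70 (-0.86 to -0.54) within RFP-, and in RFP+ cells by -0.59 (-0.81 to -0.37) within BFP+, with -0.17 (-0.35 to 0.00) within BFP-. Its BFP ratios in clusters 1 to 6 alone were -0.89 within RFP+ and -0.59 within RFP-. The thinned shares were 8.02%, 12.6%, 10.2% and 14.4% in double-positive, RFP-only, BFP-only and double-negative cells, and 0 of 45 in the B cell-like cluster (up to 7.87%).

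**Figure D1:**
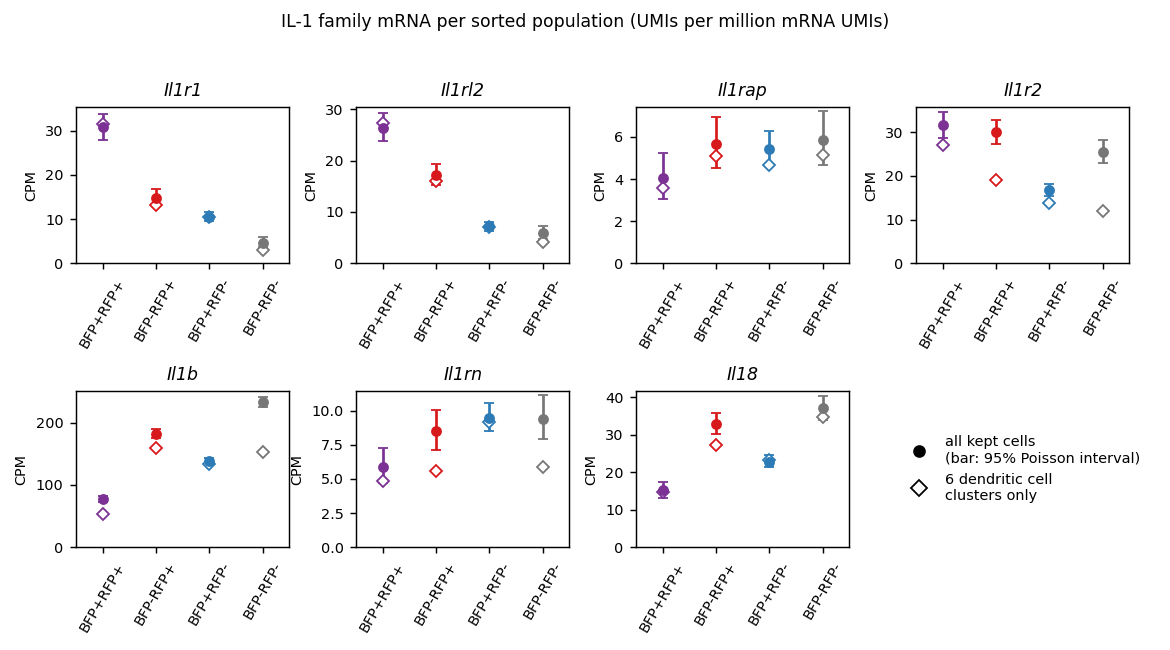
The level of each member in the 4 populations, in UMIs per 1000000 mRNA UMIs on axes from 0, with filled circles for all kept cells (bars: 95% Poisson intervals) and open diamonds for clusters 1 to 6. Il1r1 is highest in double-positive cells, at 30.8, and lowest in double-negative cells, at 4.64, whereas Il1b and Il18 have their lowest level, 78.0 and 15.2, in double-positive cells.

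The share of all genes that differ to the same degree gives the scale for these counts. Among genes with 100 or more UMIs in both populations together, 4.34% of 10139 were higher by log2 0.5 or more in RFP+ cells within BFP+, where 3 of the 7 members were, and 6.79% were lower, where another 3 were. For RFP+ cells within BFP- 5.21% of 9612 genes were higher, with 2 members, and 3.91% were lower, with 0 members. For BFP+ cells within RFP+ 2.53% of 9463 genes were higher, with 2 members, and 9.31% were lower, with 3 members. For BFP+ cells within RFP- 2.58% of 10237 genes were higher, with 1 member, and 5.39% were lower, with 3 members. The members were selected on these contrasts, so nothing is read from the excess. The median log2 ratio of the 7 members was -0.43, -0.05, -0.48 and -0.11 in these comparisons, beside -0.03, -0.01, -0.09 and -0.07 over all genes tested.

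**Figure D2:**
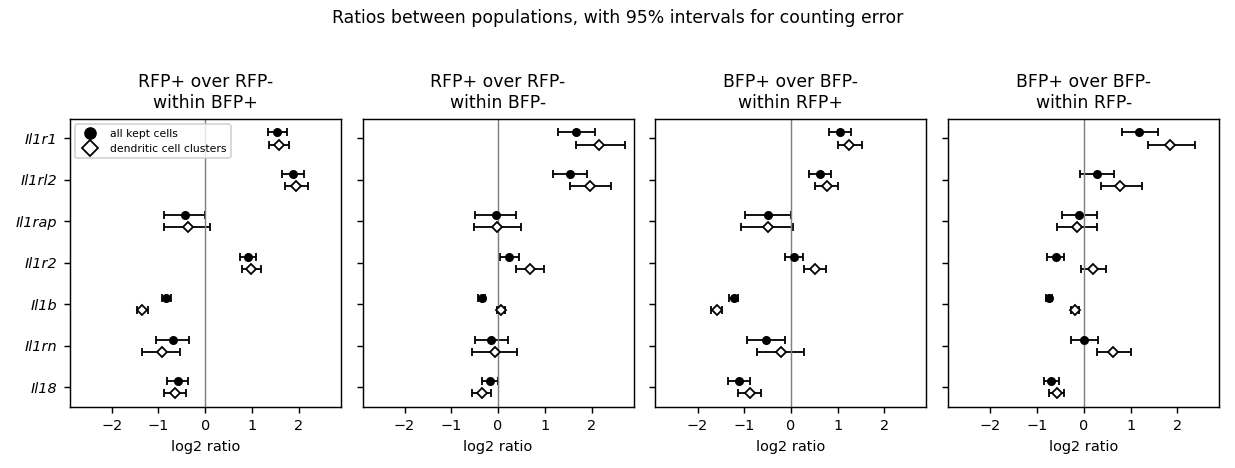
The log2 ratios of each member in the 4 comparisons, with 95% intervals for counting error, for all kept cells (filled circles) and clusters 1 to 6 (open diamonds). Il1r1 lies right of 0 in all 4 panels, while the Il1b ratio of RFP+ over RFP- cells within BFP- is 0.06 in clusters 1 to 6, against -0.35 in all kept cells.

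Among the dendritic cell clusters, both signalling receptors were highest in the same one. Cluster 1, led by Thy1, Myl7, Nrgn and Dll4, held 23.7% of the cells but 73.0% of all Il1r1 UMIs and 72.6% of all Il1rl2 UMIs, with 34.8 CPM of Il1r1 and 30.7 of Il1rl2. In clusters 2 to 6 Il1r1 lay between 0.831 and 6.10 CPM and Il1rl2 between 0.664 and 5.14. Outside them, the macrophage- or monocyte-like cluster 8 had 24.0 CPM of Il1r1 and 23.7 of Il1rl2, and the T or NK cell-like cluster 7 had 17.0 and 11.7. After thinning, an Il1r1 UMI was found in 11.6% of the cells of cluster 8 and 11.3% of those of cluster 1. The same cluster held 65.8% of the Tnfsf4 UMIs. Cluster 1 made up 50.6% of double-positive cells, 28.9% of RFP-only cells, 17.7% of BFP-only cells and 9.37% of double-negative cells. Within cluster 1 alone the Il1r1 ratio between RFP states was 0.31 (0.08 to 0.55) within BFP+ and 0.95 (0.36 to 1.65) within BFP-, and that between BFP states was 0.73 (0.45 to 1.01) within RFP+ and 1.37 (0.80 to 2.05) within RFP-. The Il1rl2 ratios in cluster 1 were 0.88 and 0.73 between RFP states, and 0.24 (-0.02 to 0.51) and 0.08 (-0.43 to 0.65) between BFP states. The populations therefore differed in Il1r1 both in how many cells were in cluster 1 and in the level within it.

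Il1b and its antagonist were highest in other cells. Among the dendritic cell clusters Il1b was highest in cluster 5 (303 CPM; led by Ifitm1, Edil3 and Plek2), then in cluster 6 (198; led by Cd81, with the chemokines Ccl17 and Ccl22) and cluster 2 (151), and it was 71.9 in cluster 1 and 17.2 in cluster 4. Il1rn had 25.5 CPM in cluster 5 and at most 5.56 in the other 5 of these clusters. The macrophage- or monocyte-like cluster 8 was above all of them, at 817 CPM of Il1b, 42.7 of Il1rn and 166 of Il1r2, and its 128 cells held 22.9% of the Il1b UMIs. Il1r2 was high in both cluster 1 (30.6 CPM) and cluster 5 (27.3), in which Il1r1 was at 1.04. Il18 had yet another pattern, with 53.1 CPM in cluster 3, 35.8 to 37.3 in clusters 2, 4 and 6, and 7.41 and 6.93 in clusters 1 and 5. The unnamed cluster 10 had 357 CPM of Il18 (284 to 444) from 40 cells. Il1rap was highest in the T or NK cell-like cluster 7, at 19.5 CPM, and lay between 2.63 and 6.10 in clusters 1 to 6.

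**Figure D3:**
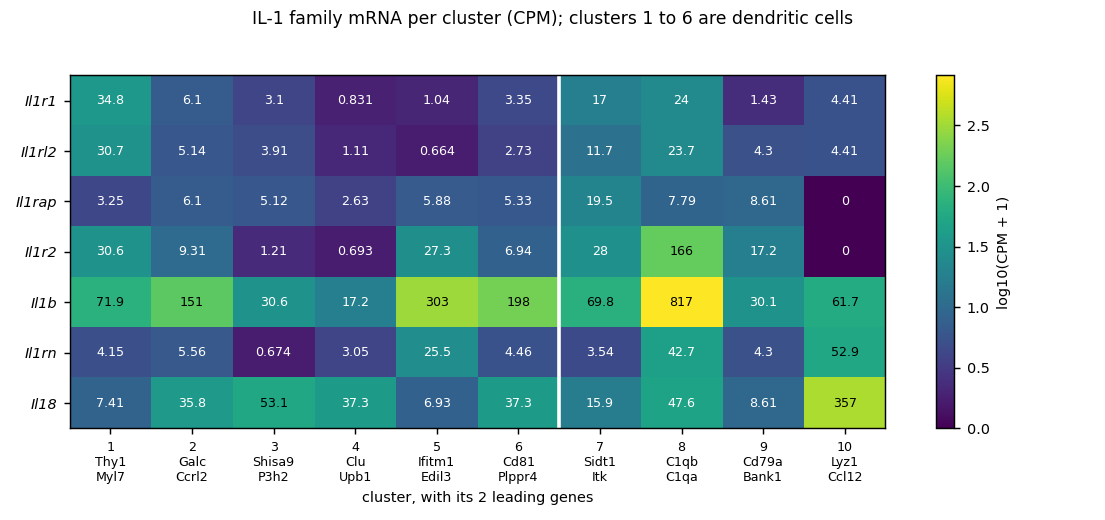
CPM of each member (rows) in the 10 clusters (columns, each with its 2 leading genes), written in the cells and coloured by log10(CPM + 1); the white line separates the dendritic cell clusters 1 to 6 from the others. Il1r1 and Il1rl2 peak in cluster 1 among the dendritic cell clusters, Il1b and Il1rn in cluster 5, and Il18 in cluster 3.

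By their UMIs, the antibody tags set Il1r1 and Il1rl2 apart from Il1b and Il1rn, while Il1r2 and Il18 kept to neither side. For each tag, all kept cells were cut into 3 groups of about equal size by their tag UMIs: for CD8a at most 34 (low), 35 or more up to 96 (middle) and above 96 (high). Il1r1 had 3.62, 8.53 and 24.7 CPM in CD8a-low, CD8a-middle and CD8a-high cells, and Il1rl2 had 2.98, 5.86 and 23.3. The log2 ratio of CD8a-high over CD8a-low cells was thus 2.76 (2.44 to 3.12) for Il1r1 and 2.96 (2.60 to 3.35) for Il1rl2. In double-positive, RFP-only, BFP-only and double-negative cells taken alone it was 2.08, 1.56, 3.32 and 1.13 for Il1r1 and 2.99, 2.45, 2.75 and 1.90 for Il1rl2, so both receptors were higher in CD8a-high cells whatever the reporters. Within cluster 1 it was 1.23 and 1.89. Median depth was 12480, 14379.5 and 17543.5 UMIs in the CD8a-low, CD8a-middle and CD8a-high cells, which CPM scales for. Tnfsf4 had a like ratio of 2.89. CD8a-high cells made up 58.1% of double-positive cells, 37.4% of RFP-only cells, 27.2% of BFP-only cells and 20.9% of double-negative cells.

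Il1b, Il1rn and Il18 ran against the CD8a tag, with log2 ratios of -1.03 (-1.10 to -0.97), -1.50 (-1.78 to -1.23) and -0.998 (-1.16 to -0.84) for CD8a-high over CD8a-low cells. With CD11b, the integrin alpha M chain of myeloid cells, Il1b had 62.2, 101 and 262 CPM in the low, middle and high groups, and Il1rn had 1.72, 4.67 and 16.7. The CD11b-high over CD11b-low ratio was 2.07 for Il1b and 3.26 (2.80 to 3.79) for Il1rn, with positive values in all 4 populations for both (1.73 to 2.46 and 1.99 to 5.12). In clusters 1 to 6 alone it was 1.53 and 2.92, although for Il1b it was 1.43 in cluster 1 and -0.22 (-0.36 to -0.08) in cluster 2. Il18 stood apart, with -0.26 over all cells and 0.56 in RFP-only cells against -1.01 in BFP-only cells.

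CD172a, the SIRP alpha protein of type 2 dendritic cells and macrophages, set Il1b, Il18 and Il1rn against Il1r1 and Il1rl2. Over the low, middle and high groups Il1b had 50.6, 97.1 and 265 CPM, Il18 had 13.9, 22.9 and 36.4, Il1r1 had 23.1, 14.4 and 7.55, and Il1rl2 had 21.6, 12.8 and 5.89. The high over low ratios were 2.39 for Il1b, 1.39 for Il18 and 1.85 for Il1rn, against -1.61 for Il1r1 and -1.87 for Il1rl2. CD301b, a lectin of dermal dendritic cells, gave the same signs with smaller ratios, 1.39 for Il1b, 0.60 for Il18, -0.74 for Il1r1 and -0.76 for Il1rl2. For Il1rn both signs depend on the scale: with the tag taken as a share of the cell's tags, its ratio was -0.58 for CD172a and -0.17 for CD301b, against 0.59 for CD301b with tag UMIs. Il1r2 had ratios of 1.24 for CD11b, 0.17 for CD8a, 0.62 for CD172a and 0.15 for CD301b over all kept cells, but of 0.41, 0.70, -0.34 and -0.40 in clusters 1 to 6. In cluster 1 its CD11b ratio was -0.58, and with tag shares its ratios were -0.30 for CD8a, -0.86 for CD172a and -0.47 for CD301b. Il1rap lay between -0.52 and 0.47 for all 4 tags over all kept cells. Its ratios in clusters 1 to 6 were 0.96 (0.54 to 1.41) for CD11b, 0.94 (0.53 to 1.39) for CD172a, 0.58 for CD301b and -0.66 for CD8a.

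**Figure D4:**
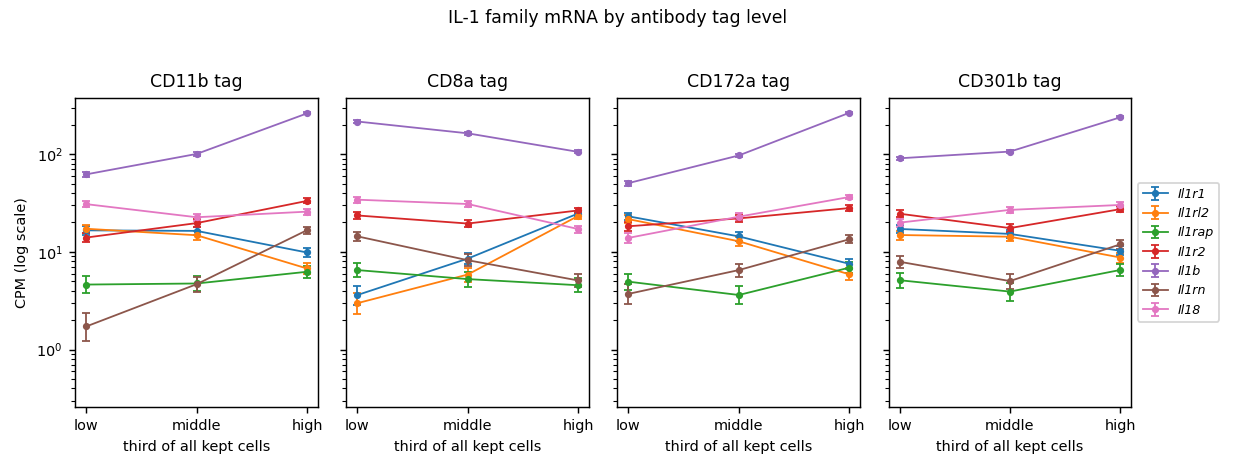
CPM of each member on a log scale in the low, middle and high group of all kept cells for each antibody tag, with 95% Poisson intervals. Il1r1 and Il1rl2 climb with CD8a, to 24.7 and 23.3, and decline with CD172a, to 7.55 and 5.89, and Il1b does the opposite.

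The relation to Tnfsf4 was read cell by cell, after thinning, in 3914 cells with 0 Tnfsf4 UMIs, 369 with 1, 140 with 2 and 223 with 3 or more. An Il1r1 UMI was found in 2.91%, 6.78%, 10.7% and 16.6% (12.0% to 22.1%) of these cells, and an Il1r2 UMI in 3.58%, 5.69%, 10.7% and 16.6%. Il1rl2 was less regular, at 2.07%, 6.78%, 3.57% and 12.1%, the value at 2 Tnfsf4 UMIs resting on 5 cells. More Tnfsf4 therefore went with more cells positive for all 3 of these receptors. Il18 went the other way, at 12.0%, 8.40%, 7.14% and 2.69%. Il1b stood at 18.2% (17.0% to 19.5%), 12.5% (9.27% to 16.3%), 14.3% and 13.9%, lower in cells with 1 Tnfsf4 UMI than in cells with 0 and with no further decline. Il1rap and Il1rn showed no order.

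The relation for Il1r1 and Il1r2 was also present inside populations and inside cluster 1. In cells with 3 or more against 0 Tnfsf4 UMIs, Il1r1 was found in 14.3% (8.39% to 22.2%) and 7.14% (5.08% to 9.71%) of double-positive cells, with overlapping intervals. In RFP-only cells the values were 22.7% (5 of 22 cells, 7.82% to 45.4%) and 3.97% (2.73% to 5.56%). In BFP-only cells they were 19.5% (11.6% to 29.7%) and 1.99% (1.38% to 2.77%). Only 7 double-negative cells had 3 or more, too few to read. In cluster 1, whose cells share their leading genes, Il1r1 was found in 21.4% of cells with 3 or more Tnfsf4 UMIs and 8.91% of cells with 0, and Il1r2 in 18.9% and 4.45%. For Il1r1 in cluster 2 the values were 4.08% (2 of 49 cells, 0.498% to 14.0%) and 1.38% (0.692% to 2.46%), with overlapping intervals. For Il18 the values in cluster 1 were 1.89% (3 cells) and 3.18%, within counting error of each other. In cluster 2 Il18 was found in 6.12% (1.28% to 16.9%) of cells with 3 or more Tnfsf4 UMIs and 16.5% (13.9% to 19.2%) of cells with 0. Il1b in cluster 2 was found in 26.0%, 19.4%, 14.6% and 12.2% of cells with 0, 1, 2 and 3 or more Tnfsf4 UMIs, whereas in cluster 1 it stood at 11.1%, 9.03%, 14.5% and 11.3%. Pearson's r of log values with Tnfsf4 over the 4646 thinned cells was 0.17 for Il1r1, 0.15 for Il1rl2, 0.14 for Il1r2 and -0.07 for Il18. These cells share 1 library and the counts are sparse, so the r values are given as a description and no finding is drawn from them.

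**Figure D5:**
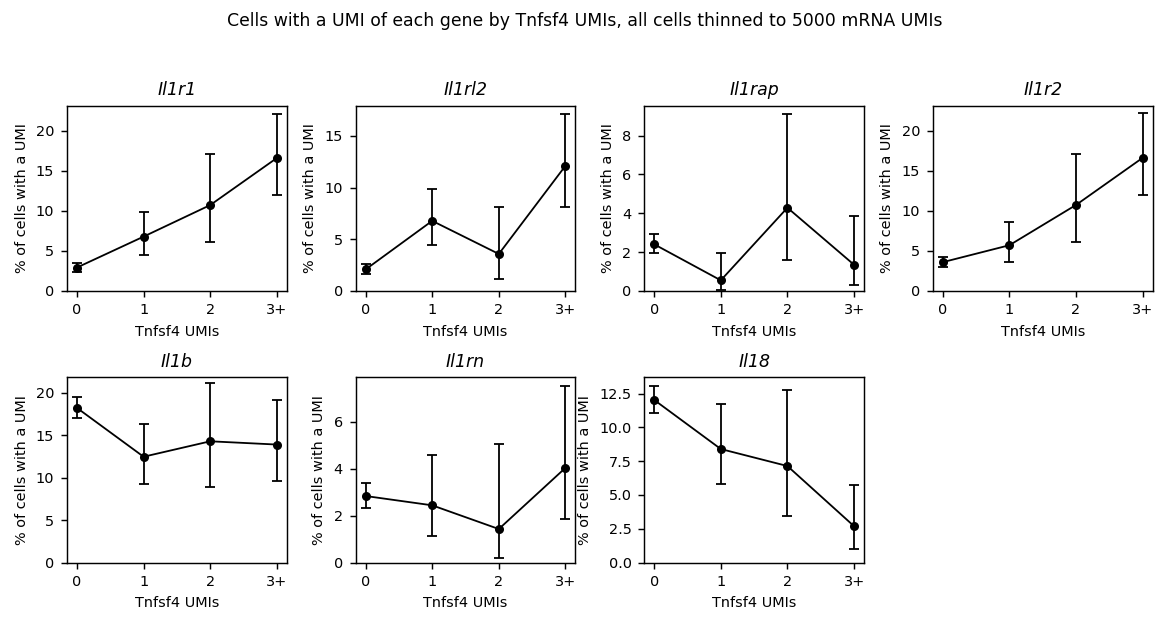
Percent of cells with a UMI of each member, with 95% Clopper-Pearson intervals, by the cell's Tnfsf4 UMIs (0, 1, 2, 3 or more), all cells thinned to 5000 mRNA UMIs. Il1r1 and Il1r2 reach 16.6% at 3 or more, while Il18 declines to 2.69%.

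Within cells the members paired unevenly. After thinning, 33 cells held UMIs of both Il1r1 and Il1rl2, where the product of both shares gives 5.67, and an Il1rl2 UMI was found in 17.3% of Il1r1-positive and 2.36% of Il1r1-negative cells. Il1r2 shared 28 cells with Il1r1 (product 8.76) and 19 with Il1rl2 (6.33). Il1rap, the partner of both signalling receptors, shared 4 cells with Il1r1 (4.32) and 5 with Il1rl2 (3.12), so joint detection with the partner was no more than the product for Il1r1. On the ligand side Il1b shared 90 cells with Il1r2 (37.1) and 51 with Il1rn (22.8), but 30 with Il1r1 (33.3). Il18 and Il1rl2 were together in 6 cells (15.4). These products are over all clusters, and some excesses were smaller within one. Inside cluster 1, Il1r1 and Il1rl2 shared 26 cells (10.4), Il1r1 and Il1r2 19 (9.95), Il1b and Il1r2 21 (9.73), Il1b and Il1rn 4 (3.32) and Il18 and Il1rl2 2 (2.58). Il1b and Il1rn shared 4 cells in cluster 2 (3.87) and 23 in cluster 5 (14.0).

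The genes most like each member were taken by the mean of the 4 within-population Pearson correlations across cells, among 5982 genes. For Il1r1 these were Htr7, Gpr183 and Gch1 (mean r 0.23 each), for Il1rl2 Napsa, H2-DMa and Slc8a1 (0.21 to 0.22), and for Il1r2 Gch1, Lmnb1 and Jarid2 (0.23 to 0.24). For Il1b they were Sdc4, Sirpa and Nr4a3 (0.28 to 0.29), for Il1rn Lst1, Sirpa and Psap (0.21 to 0.23), for Il18 Lamtor4, Frmd5 and Mt1 (0.17 to 0.18), and for Il1rap Pde3b, Arhgap26 and Ikzf1 (0.12 to 0.14). Gch1, of tetrahydrobiopterin synthesis, was on the lists of both Il1r1 and Il1r2, and Sirpa, which encodes CD172a, on those of both Il1b and Il1rn. All these r values are low, as in sparse counts, and only the ranking is described.

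The other ligands of the family were almost absent. Il36a, Il36g, Il36rn and Il1f10 had 0 UMIs in the 5023 cells, which allows up to 0.0373 CPM, and Il36b had 1 UMI, in a BFP-only cell, so mRNA of the Il1rl2 ligands was at or near 0 in these cells. Il1a had 5, 11, 15 and 14 UMIs in double-positive, RFP-only, BFP-only and double-negative cells. Il33, the ligand of the receptor encoded by Il1rl1, had 30, 35, 65 and 30 UMIs. Of the 7 other receptors and soluble regulators, 3 to 5 had 100 UMIs, and 1 of them passed log2 0.5 in any comparison: the IL-18 receptor chain Il18r1, at -0.71 (-1.07 to -0.36) in BFP+ cells within RFP+. With so few of these genes counted, nothing is read from that number beside the shares over all genes. Il18bp, which binds and blocks IL-18, and the inhibitory receptor Sigirr lay between -0.14 and 0.22 in all 4 comparisons.

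Few genes of the shared signalling chain passed log2 0.5. All 14 genes of it were counted well enough, and 0 were higher in any comparison. In RFP+ cells 1 was lower within BFP+ and 1 within BFP-, and in BFP+ cells 1 was lower within RFP+ and 0 within RFP-. Over all genes tested, 2.53% to 5.21% were higher and 3.91% to 9.31% lower. For 14 genes the counts are near these shares, so nothing is read from them. Irak3, an inhibitory kinase homologue that restrains this pathway, was the gene lower in RFP+ cells, with 6.65 CPM in double-positive, 8.32 in RFP-only, 14.2 in BFP-only and 15.1 in double-negative cells, with log2 ratios of RFP+ over RFP- cells of -1.09 (-1.43 to -0.78) among BFP+ cells and -0.85 (-1.18 to -0.54) among BFP- cells. Myd88, the adaptor, was the gene lower in BFP+ cells within RFP+, at -0.73 (-1.06 to -0.41). The medians of this list lay between -0.16 and -0.02, beside -0.09 to -0.01 over all genes.

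Of the 11 inflammasome and processing genes, 7 or 8 were counted well enough and 0 were higher. Nlrp3, the sensor that starts caspase-1 cleavage, was lower in RFP+ cells within BFP- (-0.61) and in BFP+ cells within RFP- (-2.99, -3.67 to -2.38). It had 1.34, 4.13, 0.787 and 6.32 CPM in double-positive, RFP-only, BFP-only and double-negative cells, the population order of the macrophage and monocyte marker list. The part of cluster 8 in this was not tested. All genes of the pathway lists were read over all kept cells only, not in clusters 1 to 6. Casp1 itself lay between -0.13 and 0.07. With so few genes, the counts of this list are near the shares over all genes, and nothing is read from them. Of the 12 NF-kappaB target genes, 9 were counted well enough. Il6, a cytokine induced by IL-1 in many cells, was higher in all 4 comparisons, by log2 1.44 and 0.84 between RFP states and 1.18 and 0.58 between BFP states, with 29.2, 12.9, 10.8 and 7.19 CPM in double-positive, RFP-only, BFP-only and double-negative cells, the same order as Il1r1. Cxcl2, a neutrophil chemokine, was lower in RFP+ cells at -0.59 within BFP+ and -1.01 within BFP-. Ptgs2, which makes prostaglandins, was higher in BFP+ cells within RFP+ (0.59) and lower in RFP+ cells within BFP- (-0.55), and the other 6 lay inside log2 0.5 in every comparison. In the order of comparisons used above, 1, 1, 2 and 1 of the 9 targets were higher and 1, 2, 0 and 0 lower. Over all genes tested, 2.53% to 5.21% were higher and 3.91% to 9.31% lower. With 9 genes nothing is read from these counts, and a response to IL-1 was not tested.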

How the data were processed

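Counts of UMIs in 1 matrix of genes, antibody tags and hashtags were deposited without normalization; the file headers name Cell Ranger 7.0.0, and the submitters' processing notes name GRCm39 (mm39). How barcodes were called as cells is not given in the sources used here. Hashtag share removed 699 of 6079 barcodes (11.5%) and depth or mitochondrial content 357 more. No doublet caller was run, so doublets within a population remain. UMIs were summed per population, scaled to CPM and compared as log2 ratios with a pseudocount of 0.5. Intervals are exact: Poisson for levels, conditional binomial for ratios, Clopper-Pearson for shares. Checks on simulated counts preceded these steps. Clusters came from scanpy 1.11.5 and leidenalg 0.10.2 (2000 variable genes, 30 components, 15 neighbours, resolution 0.5). A cluster was called dendritic where fewer than 6 markers of each other cell type were raised. The migratory dendritic cell, cDC2 and proliferating lists did not count as other types, and detection of migratory markers was not required. Like genes had 1000 or more UMIs, at most 5% of them in 5 cells. All 7 members and any gene of the fixed pathway lists could be named. Members and lists were chosen with earlier results of these data known. Promoters are from RefSeq GRCm38.p6, another build than the counts. HTODemux (Seurat 5.3.0) and TMM scaling (edgeR 4.0.16) served as alternatives.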

Additional observations from a re-analysis of the deposited data

Results flagged for a closer look

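Population ratios of the members were compared between clusters 1 to 6, and tag ratios between populations, and 8 of them differ in direction, with counting intervals on opposite sides of 0 (the extreme pair of each is given). Tag ratios between clusters and ratios in clusters 7 to 10 were not searched in this way, and differ in direction too in places: the CD8a ratio of Il1r2 was -0.56 in cluster 1 and 1.63 in cluster 2, and the CD11b ratio of Il18 was 0.86 in cluster 1 and -0.31 in cluster 2. None of these differences was tested, since each cluster and population comes from 1 pool.

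For Il1b, the ratio of BFP+ over BFP- cells within RFP- was 1.38 (1.22 to 1.54; 2625 against 352 UMIs) in cluster 5 and -1.54 (-2.17 to -0.92; 41 against 51 UMIs) in cluster 4. Its ratio of RFP+ over RFP- cells within BFP- was 0.66 in cluster 5 and -0.47 in cluster 1, and within BFP+ it was 0.57 in cluster 6 and -1.50 in cluster 3, the last from 6 against 77 UMIs.

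For Il1r2, the ratio of RFP+ over RFP- cells within BFP- was 0.68 in cluster 1 and -2.01 in cluster 6 (8 against 26 UMIs). The ratio of BFP+ over BFP- cells within RFP- was 0.57 in cluster 5 and -0.75 in cluster 2. The ratio of CD8a-high over CD8a-low cells was 2.28 (1.45 to 3.42) in double-positive cells, where CD8a-low cells held 10 UMIs, and -0.64 (-0.95 to -0.34) in RFP-only cells.

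For Il18, the ratio of RFP+ over RFP- cells within BFP- was 1.07 in cluster 1 (61 against 9 UMIs) and -0.47 in cluster 6. The ratio of CD11b-high over CD11b-low cells was 0.56 in RFP-only cells and -1.01 in BFP-only cells.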

How the results depend on the processing

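Of the recomputed ratios of the members, 254 stayed within the counting interval of the main ratio and 50 moved beyond it. Another 4 changed sign where that interval excluded 0, and only these are called reversed. Changes of sign where the interval held 0 were not counted. In clusters 1 to 6 alone, Il1r2 between BFP states within RFP- stood at 0.20 and Il1b between RFP states within BFP- at 0.059. With 8 clusters weighted alike in the populations, Il1rn stood at 0.84 within BFP+ and 0.88 within RFP+. Il1r1 kept its direction in every setting run, at 0.66 to 1.62 and 1.12 to 2.18 between RFP states and 0.78 to 1.27 and 1.15 to 1.84 between BFP states. Members higher in BFP+ cells in both RFP states numbered 1, and 2 without the 10% of cells with the most UMIs, in clusters 1 to 6, or without each member's 5 richest cells (added after seeing the data). Members lower there numbered 2, and 1 in clusters 1 to 6, with the same mix, or with equal weight per cell. The share of all genes past log2 0.5 in both states was not counted, so nothing is read from these numbers. The percent of genes past log2 0.5 was 11.1, 9.12, 11.8 and 7.97 in the comparisons as listed in the text; with 500 or more UMIs it was 7.22, 4.81, 6.0 and 3.58, and with 30 or more it moved to 13.7 (RFP within BFP-) and 12.5 (BFP within RFP-). With the tag as a share of the cell's tags, Il1r2 reversed to -0.30 for CD8a, -0.86 for CD172a and -0.47 for CD301b, and Il1rn to -0.58 for CD172a and -0.17 for CD301b. In clusters 1 to 6, Il1r2 reversed to -0.34 for CD172a and -0.40 for CD301b. At clustering resolution 1.0, each member's level in its highest cluster of 50 or more cells was read again. It moved beyond the counting interval of the main level for 5 members and stayed within it for 2, so cluster levels depend on the resolution. The causes were not tested, beyond the cells that a setting leaves out. No paired analysis was possible because the populations are 1 sample each. Depth limits Il1rap and Il1rn, found after thinning in 105 and 131 of 4646 cells.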
